A study of Mus musculus with 47 samples.

Results

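Genes of primed pluripotency and of the first embryonic lineages were examined in 47 single induced pluripotent stem cells (iPSCs). A list of 10 genes was looked up by name in the allelic count matrix, and 8 of them were among its 13947 genes: Fgf5, Otx2, Gata6, Gata4, Krt8, Krt18, Lefty1 and Lefty2. Pou3f1 and Sox17, which encode a POU and an SRY-box transcription factor, were not among the genes of the matrix and were not analysed here. Lefty1 was found in 36 cells and Lefty2 in 39, Otx2 in 22, Krt18 in 7, Krt8 in 4 and Gata4 in 1, whereas Fgf5 and Gata6 had no count in any cell.

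Mouse pluripotency is described as a continuum from a naive state, which resembles the epiblast before implantation, to a primed state, which resembles it afterwards. Otx2, a homeobox transcription factor, and Fgf5, a fibroblast growth factor ligand, are switched on along this path, and GATA6, GATA4 and SOX17 direct the extraembryonic endoderm. KRT8 and KRT18 are partner keratins that assemble into the intermediate filaments of simple epithelia such as the trophectoderm. LEFTY1 and LEFTY2 are secreted antagonists of NODAL, a growth factor of the TGF-beta family, and are themselves targets of Nodal signalling.

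The iPSCs came from female fibroblasts of a cross between a Mus strain, carrying a GFP transgene on its X chromosome, and the Cast strain, which were reprogrammed with lentiviral Oct4, Sox2, Klf4 and c-Myc and grown in stem cell medium with LIF. The labels add ascorbic acid to this medium, whereas the methods describe later passages of control iPSCs in its absence. The deposited column names placed 23 cells in the class X-Mus X-Cast, with both X chromosomes (XX cells below), 15 in X-Cast O-Mus, without the Mus X chromosome (X-Cast O cells), and 9 in X-Mus O-Cast, without the Cast one (X-Mus O cells). All cells shared 1 plate, and the labels name neither separate cultures nor clones, so cells do not serve as replicates and no p-value was computed. Counts cover positions that differ between the strains, and the level of a gene is its sum over both alleles per 10000 allelic counts of the cell. Because genes differ in the number of such positions, levels were compared between cells and not between genes. A read over several positions may count more than once, so a few counts can stem from a single read.

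Between 71682 and 216451 allelic counts were obtained per cell, with medians of 164722, 168885 and 179357 in XX, X-Cast O and X-Mus O cells. The 47 libraries carried 47 different index pairs, and 0 pairs of cells had identical counts. Of the 11 markers of naive pluripotency examined, all were among the genes counted and 10 were found in at least 24 of the 47 cells. Chromosome 1, which holds Lefty1 and Lefty2, divided the cells: without the 2 genes, the Mus allele gave 27.3% to 34.6% of its counts in 43 cells and 43.96% to 48.57% in the other 4 (wells B01, B04, C01 and G04). Over the autosomes, the median Mus share was 42.7%.

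Measured by the number of cells, Lefty1 and Lefty2 were the members in 24 or more of the 47 cells, a share of 2 of 8 beside 31.8% of all genes in the matrix. No count was found for 2 of the 8 members, beside 12.6% of all genes. For Fgf5 and Gata6, 0 of 47 cells allows a share of up to 6.38% of cells with a count, taken as 3 of 47 (the upper bound of the 95% Clopper-Pearson interval is 7.55%), and 0 of 7720753 allelic counts allows a level of up to 0.0039 per 10000, in counting error alone. These limits concern cells with a count, not cells that express the gene. Gata4 was represented by 3 Cast counts in a single X-Cast O cell (well H02). The map of allelic counts per cell shows these differences.

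**Figure D1:**
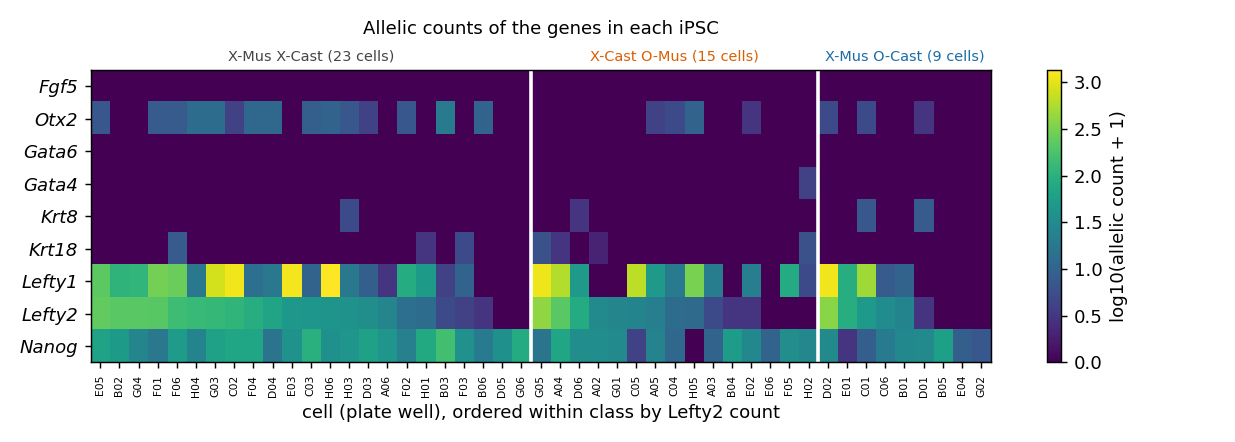
Allelic counts of the 8 genes present in the matrix and of Nanog (rows) in the 47 cells (columns, named by plate well, grouped by class and ordered by Lefty2 count), with colour for log10 of the count plus 1. Lefty1 and Lefty2 fill most columns, Otx2 22 columns, and the rows of Fgf5 and Gata6 are empty.

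Otx2, on chromosome 14 from 48657677 to 48673819 on the minus strand (GRCm38, the build also known as mm10), had 155 counts in 22 of 47 cells, 46.8% (95% Clopper-Pearson interval 32.1 to 61.9). Its level ranged from 0 to 0.98, with a median of 0, and the highest cell (B03) had 19 counts. Positive cells held a median of 6.5 counts, so that absence in the other 25 cells is a statement at this depth. Fgf5, the other primed marker among the members in the matrix, had no count in any cell. Of 10 further genes of the primed and formative epiblast, 8 were in the matrix, 7 had a count, and 2 were found in 24 cells or more: Dnmt3b, a de novo DNA methyltransferase (45 cells), and Lef1, a transcription factor of Wnt signalling (26 cells). Sall2 had no count.

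By class, Otx2 was found in 15 of 23 XX cells (65.2%, 95% interval 42.7 to 83.6), 4 of 15 X-Cast O cells (26.7%, 7.79 to 55.1) and 3 of 9 X-Mus O cells (33.3%, 7.49 to 70.1). In XX cells its level ran from 0 over a median of 0.40 to 0.98. The values were 0, 0 and 0.74 in X-Cast O cells and 0, 0 and 0.29 in X-Mus O cells. The classes overlapped, since each held cells without Otx2, but most XX cells were positive and most cells with a single X were not. Mean levels were 0.34, 0.081 and 0.067, which is a log2 fold of -2.06 for X-Cast O and -2.33 for X-Mus O cells over XX cells. With each cell left out in turn, the first ranged from -3.31 (without H05) to -1.93 and the second from -3.12 (without D02) to -2.16. Of 7984 genes that averaged 1 count per cell or more, 13.6% were at least 2-fold lower in X-Cast O cells, 19% in X-Mus O and 6.12% in both. At least 2-fold higher levels were found for 13.7% and 15.7% of genes. Otx2 was the only one of the 3 members that passed this filter to be past 2-fold in either class, and Nanog, the naive pluripotency homeobox factor, was also lower in both (log2 fold -1.14 and -1.26). Both folds use the same XX cells. Of the 11 naive markers, 4 were at least 2-fold lower in X-Cast O and 6 in X-Mus O cells, and of 6 primitive endoderm markers that passed the filter 4 and 3 were at least 2-fold higher and 0 and 1 at least 2-fold lower, the latter being Col4a2, which had no count there. Of the other primed and formative genes, 3 passed the filter. Lef1 was higher in both classes (log2 fold 1.501 and 1.38), Fgf15 had no count in X-Cast O and was higher in X-Mus O cells (2.12), and Dnmt3b stayed within 2-fold. The part of these lists in the values of Otx2 was not tested. After thinning every cell to 71682 counts, 14.5, 3.24 and 2.40 Otx2-positive cells were left in expectation in the 3 classes.

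Most Otx2 counts came from the Cast allele. Of the 155 counts, 130 were Cast and 25 Mus, a Mus share of 16.1% (95% interval 10.7 to 22.9). Cells with Cast counts alone numbered 17, those with both alleles 4, and 1 cell (F06) had 7 Mus counts and none from Cast. A further XX cell (F04) held 9 Mus counts and 1 Cast count, and without it the overall share fell to 11.03%. In the 3 positive X-Mus O cells all 10 counts were Cast, whereas the 18 counts of X-Cast O cells were 50.0% Mus (26.02 to 73.98), 6 of the 9 Mus counts being from cell H05. Otx2 was 1 of 4 members with at least 20 counts and the only one outside 25% to 75% Mus. Of 9273 autosomal genes with at least 20 counts, 20.5% lay below 25% Mus and 8.13% above 75%.

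**Figure D2:**
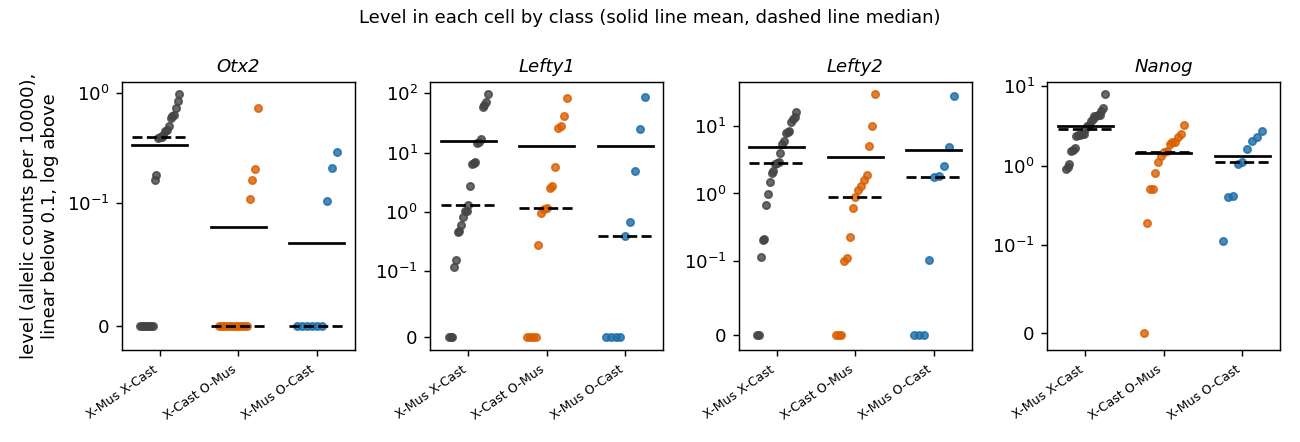
Level of Otx2, Lefty1, Lefty2 and Nanog in each cell (points; allelic counts per 10000, axis linear below 0.1 and logarithmic above) for the 3 classes, with the class mean as a solid and the median as a dashed line. Otx2 and Nanog have lower means in both classes with a single X, while for Lefty1 the 3 means lie between 12.93 and 15.96.

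The keratins were rare. Krt8, on chromosome 15 from 101996698 to 102004482 on the minus strand, had 19 counts in 4 cells: 6 in C01, 7 in D01, 2 in D06 and 4 in H03. Krt18 lies beside it in the opposite orientation, from 102028180 to 102032027, and had 26 counts in 7 cells: 1 in A02, 2 in A04, 4 in F03, 7 in F06, 5 in G05, 2 in H01 and 5 in H02. No cell held counts of both partners. With 4 and 7 positive cells this overlap of 0 carries little information, and the Spearman correlation of their levels was -0.13. Every keratin-positive cell showed 1 allele. These cells held 1 to 7 counts each, and a few counts can stem from a single read, so this says little about allele use. For Krt8, the allele was Cast in D01 and Mus in the other 3 cells. For Krt18, it was Cast in A04, F03, G05 and H02 and Mus in A02, F06 and H01. Krt8 had a count in 1 of 23 XX, 1 of 15 X-Cast O and 2 of 9 X-Mus O cells, and Krt18 in 3, 4 and 0. Neither gene averaged 1 count per cell, so no fold was read.

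Markers of other cell types were examined beside the members. Of 9 trophectoderm markers, 5 had a count and Cdx2, Elf5, Krt7 and Hand1 had none. Tfap2c (31 cells) and Tead4 (28 cells) were found in the most cells. The summed level of the list ran from 0 to 3.67 in XX, 0 to 3.87 in X-Cast O and 0 to 5.42 in X-Mus O cells. Of 11 primitive endoderm markers in the matrix 10 had a count. Pdgfra, a receptor that defines this lineage, had none and Sox7 had counts in 2 cells. The matrix protein genes Sparc (47 cells), Lamc1 (45), Lamb1 (26) and Lama1 (23) were found in the most cells. The summed level of this list ran from 1.82 to 15.9, from 5.34 to 21.97 and from 1.25 to 23.5 in the same order. Of the epithelial markers, Cdh1 and Epcam were found in 44 cells each, Cldn6 in 19 and Ocln in 6. All 4 passed the filter on low counts, and Cldn6 alone was past 2-fold, with a log2 fold of 2.94 in X-Mus O cells. Their summed level had medians of 6.48, 5.33 and 15.99 in XX, X-Cast O and X-Mus O cells. The mesoderm markers T and Eomes had counts in 3 and 4 cells. Of 8 fibroblast markers 5 had a count, Col1a2, Zeb2 and S100a4 had none, and Vim, an intermediate filament gene, was in 34 cells. Of the 3 that passed the filter on low counts, 1 was at least 2-fold higher than in XX cells in X-Cast O and 2 in X-Mus O cells. Over all genes that passed it the shares were 13.7% and 15.7%. The log2 folds were 1.37 and -0.40 for Vim, -0.85 and 2.15 for Zeb1 and 0.36 and 1.77 for Thy1. The list summed to between 0 and 3.71, 0 and 9.14, and 0 and 4.05. The part of other cell types in the counts of the members was not tested.

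Lefty1 and Lefty2 are neighbours on chromosome 1, both on the plus strand. Lefty2 occupies 180893108 to 180899103 and Lefty1 180935022 to 180938400, with 41.9 kb between their starts. The coding sequences of the reference transcripts, 1107 bases each, were identical at 1017 positions (91.9%). Because such paralogs can share reads, the 150 coding bases that differ most between them within an exon are shown, with capitals for the bases that differ. They are on the plus strand of GRCm38, from the GENCODE M21 transcripts. This stretch, chr1:180935172-180935321 in Lefty1 and chr1:180893246-180893395 in Lefty2, differed at 40 bases:
Lefty1: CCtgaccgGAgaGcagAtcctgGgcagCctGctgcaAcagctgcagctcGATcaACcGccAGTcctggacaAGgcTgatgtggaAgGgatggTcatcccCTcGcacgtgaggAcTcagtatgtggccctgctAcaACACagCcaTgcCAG
Lefty2: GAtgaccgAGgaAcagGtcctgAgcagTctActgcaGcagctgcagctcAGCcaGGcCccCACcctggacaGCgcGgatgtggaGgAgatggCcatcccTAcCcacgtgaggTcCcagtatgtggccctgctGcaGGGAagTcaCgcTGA
Reads were 50 bases long. Of all 50-base stretches of the Lefty1 transcript, 281 of 1571 (17.9%) also occurred in that of Lefty2, and the same 281 made up 11.6% of the 2424 stretches of Lefty2. Reads from these parts cannot be told apart by the reference sequence. The share of allelic counts that falls in them was not computed, so how far the values of both genes are uncertain is not known.

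Lefty1 had 10528 counts in 36 of 47 cells (76.6%, 95% interval 62.0 to 87.7). Its level ran from 0 over a median of 1.14 to 95.7 per 10000. The 47 cells spread over the whole range: 11 were at 0, 10 lay below 1, 13 between 1 and 10, and 13 at 10 or more. The fewest cells that together held at least 0.5 of all Lefty1 counts were 5, with 1363 in H06, 1198 in E03, 1169 in D02, 1165 in C02 and 1148 in G05. Lefty2 had 3223 counts in 39 cells (83.0%, 69.2 to 92.4), with a median level of 1.78 and a maximum of 29.8, and 6 cells were needed to reach at least 0.5 of its counts. For Nanog, 12 cells were needed. Absence at such abundance was uncommon in the matrix: of 529 genes that averaged 50 counts per cell or more, 7 (1.32%) lacked counts in 8 or more cells. Lefty1, with a mean of 224 counts, lacked them in the most cells (11), and Lefty2, with 68.6, in 8. The levels had little relation to depth, with a Spearman correlation with the total of the cell of -0.19 for Lefty1 and -0.03 for Lefty2.

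The Lefty genes occurred together. Both had counts in 34 cells, Lefty1 alone in 2 (F05 and H02), Lefty2 alone in 5, and 6 cells had neither. Cells with Lefty1 had Lefty2 in 94.4% of cases, and cells with Lefty2 had Lefty1 in 87.2%. The Spearman correlation of their levels over the 47 cells was 0.71, Pearson's r of the log-transformed levels was 0.66, and the Spearman value without the 2 cells of most extreme Lefty1 level was 0.70. Among 26488281 pairs of genes with counts in at least 10 cells, 2.7% reached 0.3 and 0.0422% reached 0.5. Of 6964 pairs whose starts lay within 100 kb, 0.503% reached 0.5. The correlation was 0.54 over the 34 cells with both genes, and 0.70, 0.48 and 0.96 within XX, X-Cast O and X-Mus O cells. In the 43 cells with the lower Mus share of chromosome 1 it was 0.70. The cells of the highest Lefty1 level were not those of the highest Lefty2 level throughout. G05 and D02 were high for both (Lefty1 levels 83.8 and 86.0, Lefty2 levels 29.8 and 28.02), whereas H06 combined the highest Lefty1 level, 95.7, with a Lefty2 level of 2.88.

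**Figure D3:**
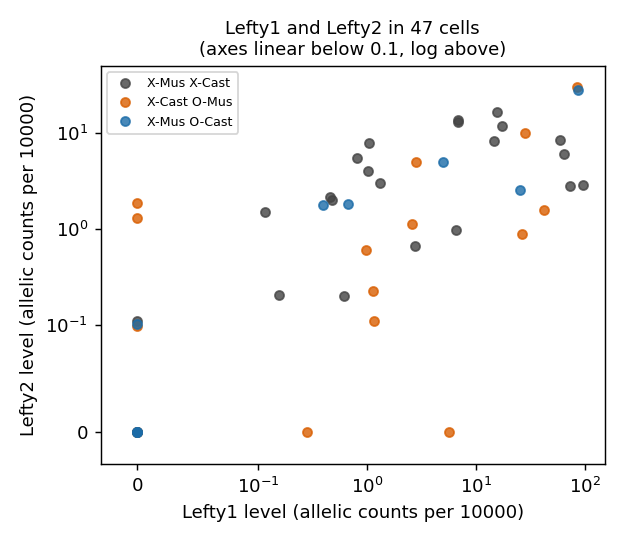
Level of Lefty2 against that of Lefty1 in the 47 cells, coloured by class, on axes linear below 0.1 and logarithmic above. Levels rise together (Spearman correlation 0.71), 6 cells lie at the origin, and 2 cells stand at the upper right for both genes.

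Chromosome 1 as a whole was set beside the pair. The share of autosomal counts from chromosome 1, computed without the Lefty genes, had a correlation of 0.10 with Lefty1 and 0.14 with Lefty2. In the 4 cells with the higher Mus share of chromosome 1, Lefty1 and Lefty2 levels were 0 and 0.099 in B04, 6.82 and 12.9 in G04, 0.66 and 1.85 in B01, and 25.1 and 2.55 in C01, within the range of the other cells. Among the 4439 other genes with counts in 24 or more cells, Lefty2 was the most alike to Lefty1 and Lefty1 to Lefty2. Ube2k (0.49), which encodes a ubiquitin-conjugating enzyme, was also among the genes most alike to Lefty1, and Rbm3 (0.48), an RNA-binding protein gene, and Wdyhv1 (0.46) followed for Lefty2.

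Both alleles of the Lefty genes were read. The Mus share was 39.9% for Lefty1 (95% interval 38.9 to 40.8) and 45.6% for Lefty2 (43.9 to 47.3). These intervals treat counts as independent, and single cells moved the share of Lefty1 beyond them. It was 35.9% without C05 and 41.7% without E03. That of Lefty2 ran from 43.8% (without D02) to 47.1% (without B02). Autosomal genes with at least 20 counts had a median of 45.1%, and the rest of chromosome 1 had 27.3% to 34.6% in 43 of the 47 cells. Counts of both alleles were found in 29 of the 36 Lefty1 cells and in 32 of the 39 Lefty2 cells. In 23 cells with at least 20 Lefty1 counts, the Mus share ran from 0% over a median of 32.2% to 99.8%, and 8 lay below 25% and 4 above 75%. In 28 cells with at least 20 Lefty2 counts it ran from 6.12% over 44.9% to 100%. Single cells with many counts thus differed in allele. C05 had 1 Cast and 656 Mus counts of Lefty1, whereas G03 had 639 and 202, and C02 619 and 546. For Lefty2, C05 had 20 Cast and 5 Mus counts and C02 had 102 and 8, so that neither cell used the alleles of the 2 genes in the same proportion. Over the 17 cells with at least 20 counts of each gene, the Mus shares had a correlation of 0.08.

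The Mus share of Lefty1 was 33.99% in XX, 53.8% in X-Cast O and 35.8% in X-Mus O cells, but without C05 that of X-Cast O cells was 40.7%. For Lefty2 the shares were 38.1%, 52.4% and 58.9%. Levels of the 2 alleles followed each other over cells, with a correlation of 0.78 between the Cast and Mus level of Lefty1 and 0.76 for Lefty2. This was reached by few genes, since 0.611% of 4257 genes were at 0.7 or above and the median was 0.20. Nanog had 0.53 and Otx2 0.08. Across the genes, the Cast level of Lefty1 had a correlation of 0.71 with the Cast and 0.47 with the Mus level of Lefty2, and the Mus level of Lefty1 0.72 with the Cast and 0.57 with the Mus level of Lefty2. Pairs on the same homologue were therefore not uniformly above pairs on different ones.

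**Figure D4:**
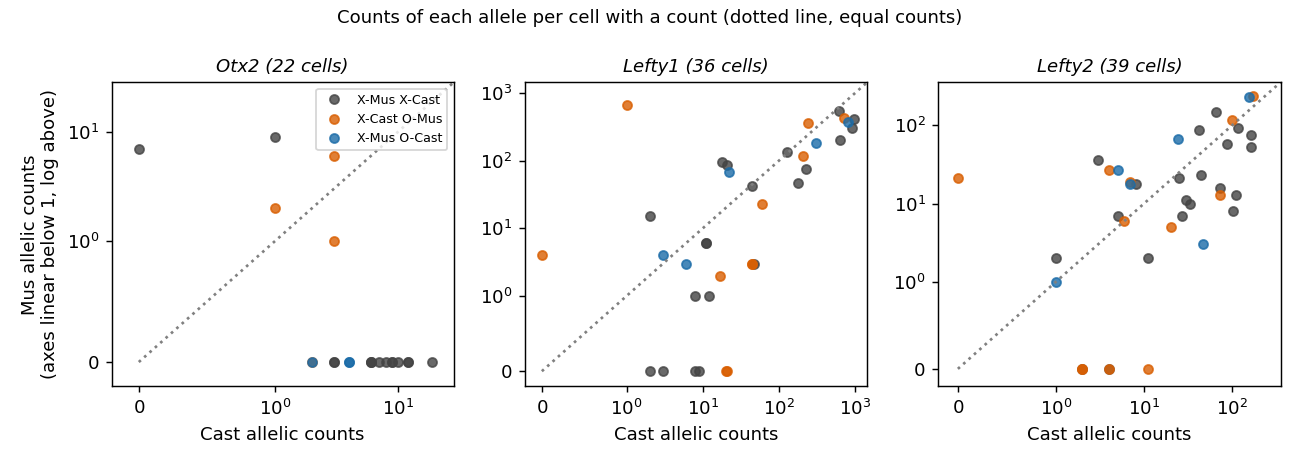
Mus against Cast counts of Otx2, Lefty1 and Lefty2 in each cell with a count, coloured by class, on axes linear below 1 and logarithmic above, with a dotted line at equal counts. Otx2 points lie mostly on the Cast axis (17 of 22 cells). Lefty1 points lie mostly on the Cast side of the line (median Mus share 32.2% in cells with at least 20 counts). Lefty2 points lie on both sides of it (median 44.9%).

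By class, Lefty1 was found in 20 of 23 XX, 11 of 15 X-Cast O and 5 of 9 X-Mus O cells, and Lefty2 in 21, 12 and 6. Levels of Lefty1 ran from 0 to 95.7 (median 1.30), from 0 to 83.8 (1.16) and from 0 to 86.0 (0.39), so the classes overlapped over nearly the whole range. Mean levels were 15.96, 12.93 and 13.01, a log2 fold of -0.30 for X-Cast O and -0.29 for X-Mus O over XX cells. Single cells set these values. Without G05 the first was -1.02 and without D02 the second was -2.04, whereas without H06 they were 0.07 and 0.08. For Lefty2, levels ran from 0 to 16.4 (median 2.88), 29.8 (0.90) and 28.02 (1.78), with means of 4.84, 3.52 and 4.37. Its log2 folds were -0.46 and -0.15, or -1.56 without G05 and -1.78 without D02, and the second was 0.022 without B05. The direction thus turned with single cells for Lefty1 in both classes and for Lefty2 in X-Mus O cells, and no difference of the Lefty genes between classes was read from these values.

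LEFTY1 and LEFTY2 act on the Nodal and Activin pathway, of which 12 of 16 listed genes were in the matrix, all with a count and 3 in 24 cells or more. The co-receptor gene Tdgf1 and the ligand gene Gdf3 were found in all 47 cells and Nodal in 30. Nodal had a correlation of 0.01 with Lefty1 and -0.09 with Lefty2, Tdgf1 of -0.25 and 0.14, and Gdf3 of -0.13 and -0.21 over all cells. These values differed between the classes. Nodal had 0.15, -0.44 and 0.22 with Lefty1 and -0.097, -0.67 and 0.26 with Lefty2 in XX, X-Cast O and X-Mus O cells. Tdgf1 had -0.23, -0.52 and 0.17 with Lefty1 and 0.12, -0.075 and 0.25 with Lefty2. Over the cells with both genes, Nodal had -0.30 with Lefty1 (24 cells) and -0.41 with Lefty2 (26 cells). For Gdf3 the values were -0.0079, -0.27 and -0.296 with Lefty1 and -0.0044, -0.28 and -0.19 with Lefty2, below zero in each class and near zero in XX cells. For Nodal and Tdgf1 the sign differed between classes. Of the 8 genes that averaged 1 count or more, 2 were at least 2-fold lower and 2 at least 2-fold higher in X-Cast O cells, and 2 and 3 in X-Mus O cells. Over all 7984 genes that passed this filter, the shares were 13.6% and 13.7% in X-Cast O and 19% and 15.7% in X-Mus O cells. The folds of these pathway genes were not recomputed with single cells left out. Smad4, the common mediator of the pathway, was lower in both (log2 fold -1.96 and -2.26), with counts in 22 cells. Smad2 and Smad3, which encode the mediators activated by the receptors, were higher in both (1.45 and 1.98 for Smad2, 1.31 and 2.26 for Smad3), with counts in 14 and 22 cells. Nodal was lower in X-Mus O cells (-1.09, beside -0.67 in X-Cast O), Pcsk6, a proprotein convertase gene, in X-Cast O cells (-2.001, beside -0.12 in X-Mus O), and Skil, a repressor of SMAD signalling, was higher in X-Mus O cells (1.28, beside -0.18).

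Members were also compared with each other. Counts for 3 of the 8 members were the most frequent number, in 24 cells, followed by 2 in 11 cells, 1 in 3 cells and 4 in 3 cells, and 6 cells had none. The cells without any member were 2 XX, 1 X-Cast O and 3 X-Mus O cells. They included the shallowest cell, E04, and also B05 with 212232 counts, and each had Nanog counts, from 6 in G02 to 84 in G06. All 22 Otx2 cells had Lefty2 and 20 had Lefty1, while of the 25 cells without Otx2 17 had Lefty2 and 16 Lefty1. Within XX cells Lefty2 was in 15 of 15 cells with and 6 of 8 without Otx2, in X-Cast O cells in 4 of 4 and 8 of 11, and in X-Mus O cells in 3 of 3 and 3 of 6. In level, the Spearman correlation of Otx2 with Lefty2 was 0.32 over all cells, past the limit of 0.3, which 2.7% of gene pairs reached. Pearson's r of the log-transformed levels was 0.24. With each cell left out in turn, the Spearman value ran from 0.295 to 0.37. Over the 22 cells with both genes it was 0.20. With Lefty1 it was 0.28 over all cells and -0.02 over the 20 cells with both. In XX, X-Cast O and X-Mus O cells the values were 0.18, -0.09 and 0.55 for Lefty2 and 0.09, 0.12 and 0.55 for Lefty1. Median depth was 171490 in cells with Otx2 and 164722 in the others. Krt8 shared 3 of its 4 cells with Otx2, and Krt18 shared 1 of 7. The genes most alike to Otx2 among 4440 were Rcsd1 (0.53), Asph (0.52) and Sdr39u1 (0.50).

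Nanog, on chromosome 6 from 122707489 to 122714633, had 1766 counts in 46 of 47 cells and levels from 0 over a median of 2.01 to 7.96. None of the 3 members with counts in at least 10 cells had a correlation with Nanog beyond 0.3 over all cells. The values were 0.15 for Otx2, 0.02 for Lefty1 and 0.16 for Lefty2, beside a median of 0.03 over 7278 genes, of which 5.41% reached 0.3 and 3.19% reached -0.3. For the sparser Krt8 and Krt18 they were -0.06 and 0.16. Within classes Otx2 had 0.03, -0.48 and 0.22 in XX, X-Cast O and X-Mus O cells, and 0.31 over the 21 cells with both genes. The cell with the most Nanog counts, B03 with 154, was also the one with the most Otx2 counts, 19, whereas H05, the cell without a Nanog count, had 9 Otx2 and 320 Lefty1 counts. Lefty1 had -0.09, -0.17 and -0.09 within the classes and Lefty2 -0.11, 0.01 and -0.10. Of the further primed and formative genes, Dnmt3b had -0.35 and Lef1 -0.29, and of 8 genes of the Nodal and Activin pathway with counts in at least 10 cells (median 0.13) 2 reached 0.3, Nodal (0.30) and Smad4 (0.31), and 1 reached -0.3, Gdf3 (-0.33). These correlations share the plate, the library preparation and the totals of the cells.

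RefSeq promoters (GRCm38.p6, 250 bases before to 50 after a start) were at hand for 4 of the members in the matrix, Fgf5, Krt8, Krt18 and Otx2, with 7 windows in all. The letters TATAAA were found on either strand in windows of Fgf5, Krt8 and Otx2 (13.6% of 32851 promoters), GGGCGG of a GC box and GGGTGTG of KLF factors in that of Fgf5 (35.7% and 7.95%), CAGAC of SMAD factors in Krt8 and Krt18 (49.6%) and AGATAA of GATA factors in Krt8 and Otx2 (11.2%). TGTGGATT of FOXH1 (0.855% of promoters) and ATTTGCAT of the octamer (1.74%) were in none of the 7. These matches describe letters and carry no evidence of binding.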

How the data were processed

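The authors deposited unnormalized allelic counts per gene, with a Cast and a Mus column for each of 47 iPSCs of 1 plate. Cells were sorted into a GpC methylase mix, processed by G&T-seq and sequenced in single-end mode. The submitters' processing notes name STAR 2.5.3a, SAMtools and mm10. For allele-resolved plate libraries the methods describe masking of SNPs, SNPsplit and a minimum of 4 SNPs per gene, and they give no separate account for this plate. No molecular identifiers were used, and no doublet caller was run on cells sorted singly.

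Counts of both alleles were scaled to 10000 per cell with pandas 2.3.3 and numpy 2.4.6 in Python 3.11.15. Intervals came from scipy 1.17.1 and figures from matplotlib 3.10.9. Classes came from the column names. Folds are ratios of mean levels, for genes averaging at least 1 count per cell. Shares of genes and of gene pairs past a Spearman correlation of 0.3, the limit used, cover genes with counts in at least 10 cells. Values of the sparser Krt8 and Krt18 are given beside them. Intervals are 95% Clopper-Pearson and cover counting error only, and a count of 0 was given a limit of 3 counts. Depth, 71682 to 216451 counts per cell, limits genes of few counts. Thinning to 71682 counts used exact hypergeometric expectations. Positions are from GENCODE M21, which placed 13945 of 13947 genes. Genes beyond the members were named from lists (primed, Nodal and cell type markers), as the 3 genes most correlated with each member found in at least 10 cells, or as abundant genes and keratins chosen after their values were seen. For Lefty1, 1 gene of this rule is not reported here. Members and lists were chosen with earlier results of these data known. Scripts were tested on simulated data.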

Additional observations from a re-analysis of the deposited data

Results flagged for a closer look

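Of the members found in at least 3 of the 9 X-Mus O cells, Otx2, Lefty1 and Lefty2 were screened with Dixon's ratio, and 2 had a highest cell far from the others. Both were in the same cell, D02. Its Lefty1 level was 86.0, with 25.1 in the next cell and a ratio of 0.71, and its Lefty2 level was 28.02, with 5.00 in the next cell and a ratio of 0.82, both above the critical value at the 95% level. For normally distributed values about 1 in 20 groups is marked in this way by chance, whereas these levels are skewed, and with a correlation of 0.96 between both genes in this class the 2 results are not separate. The other classes hold more than 10 cells and were not screened.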

How the results depend on the processing

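Counting error, the absence of separate cultures and the few counts of Otx2, Krt8 and Krt18 limit what these cells show. The counts of 2 members found in 24 cells or more and of 1 member outside 25% to 75% Mus were the same under each alternative tried for them. The count of 0 members beyond 0.3 with Nanog was recomputed with median-ratio size factors alone, where it was again 0. Within subsets of cells Otx2 did pass that limit, with -0.48 in X-Cast O cells and 0.31 over the 21 cells with both genes. The correlation of Krt8 and Krt18 was -0.11 by Pearson's r, -0.082 in XX cells and -0.092 without 2 extreme cells. That of Lefty1 and Lefty2 was 0.66 by Pearson's r and, in settings chosen after seeing the data, 0.54 in cells with both genes, 0.48 in X-Cast O cells and 0.96 in X-Mus O cells. Without the highest cell of each class, 2 members (Otx2 and Lefty2) were past 2-fold in X-Cast O and 3 (Otx2, Lefty1 and Lefty2) in X-Mus O cells. Without the filter on low counts, 2 (Otx2 and Krt8) were past 2-fold in X-Mus O cells. The cause was not tested. Of 57 alternatives for single genes, 45 were labelled as within the spread of their value and 12 as moved. The 45 include large shifts and do not measure stability. Without the highest cell of each class, the X-Mus O log2 fold went from -0.29 to -1.66 for Lefty1 and from -0.15 to -1.61 for Lefty2. Both were labelled as within their spread. Some of the 12 that moved changed sign below the limit of 0.3. The correlation with Nanog went from 0.02 to -0.05 (Pearson's r) and -0.093 (XX cells) for Lefty1, from 0.16 to -0.11 (XX cells) for Lefty2 and from -0.06 to 0.064 (XX cells) for Krt8. The Mus share of Krt18 went from 38.5% to 69.2% in XX cells. No paired analysis was possible because the cells form 1 group of single cells without pairing labels.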

Other observations

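Other keratins were looked at after their values were seen. Of 23 keratin genes in the matrix, 12 had a count and 2 were found in at least 10 cells, both on chromosome 11. Krt42 (100262882 to 100269871) had 1755 counts in 39 cells, 82.5% of them Mus, and levels up to 14.1 per 10000. Krt17 (100256217 to 100261029) had 169 counts in 17 cells, 59.2% Mus, and a log2 fold of 1.99 in X-Mus O over XX cells and of -0.15 in X-Cast O cells. Keratins of this cluster are close paralogs, and their counts are uncertain where reads are shared. The correlation with Nanog was -0.06 for Krt42 and -0.18 for Krt17.

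Among the 529 genes averaging 50 counts or more, those that lacked counts in 8 or more cells were, besides the Lefty genes, Trh and Aurkb (9 cells each) and Eprn, Gsta3 and Tuba3b (8 cells each). Trh, which encodes thyrotropin-releasing hormone, had a mean of 154 counts and up to 784 in a cell.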
